A study of Mus musculus with 4 samples.

Results

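T cell lineage and activation genes were followed in the lungs of normal and ovalbumin (OVA)-induced mice with and without Rab44. The genes are a list of 10 names, chosen with earlier results of these data known, although the rule itself uses no measured value. All 10 were found among the 41079 genes of the count table. Cd3e marks the T cell receptor complex, Cd4 and Cd8a encode the coreceptors of helper and cytotoxic cells, Gata3, Foxp3 and Tbx21 encode lineage transcription factors, and Ctla4, Icos, Pdcd1 and Il2ra encode surface receptors of activation. Lung RNA was sequenced as 4 libraries, 1 per genotype in normal and in OVA-induced mice, to ask whether loss of Rab44, a large Rab GTPase of immune cells, alters gene expression at rest and in allergic airway inflammation. The mice were female littermates of 8 to 14 weeks on a C57BL/6 background, and the Rab44-KO line was made by CRISPR/Cas9 editing. OVA-induced mice of both genotypes were given 100 μg OVA with the adjuvant alum into the peritoneum on days 0, 7 and 14, then 100 μg OVA in 50 μL into the nose for 4 days, and lungs were collected on day 21. For the normal mice the labels state no treatment, although the protocol attached to them also mentions a PBS challenge. How many mice stand behind each library, and whether RNA was pooled, is not given in the sources used here. With 1 library per group, every comparison was between libraries, no difference has a replicate check, and no p-value is given.

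T cells recognise antigen through the T cell receptor, whose signal is carried into the cell by the CD3 chains, while CD4 and CD8 bind the presenting MHC molecules. Helper cells take on fates set by transcription factors, with GATA3 driving type 2 responses such as allergic asthma, T-bet (Tbx21) type 1 responses and FOXP3 regulatory T cells that restrain both. Activated cells add ICOS, which enhances helper function, CTLA-4 and PD-1 (Pdcd1), which restrain it, and CD25 (Il2ra), the high-affinity chain of the interleukin-2 receptor. Several of these genes are also expressed outside the T lineage, as Gata3, Icos and Il2ra are in group 2 innate lymphoid cells and Cd4 and Cd8a in some dendritic cells.

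The libraries held between 18112901 and 19910236 counts, and Rab44 itself had 251 counts in the WT and 1 in the Rab44-KO library at rest, and 810 and 0 after OVA. Counts were scaled for library size by TMM and are given as CPM where levels are compared between libraries. A log2 fold change was taken where either library compared had 10 counts or more, and a gene beyond a log2 fold change of 1 was called over 2-fold. Values in brackets after a fold change are 95% Clopper-Pearson limits, which hold counting error alone. Housekeeping genes did not stay level, since 9 of 10 were lower without Rab44 under OVA, with a median log2 fold change of -0.62 against -0.07 between the normal libraries. In WT lungs 9 of the 10 were higher after OVA, with a median of 0.41, against -0.07 in Rab44-KO lungs. The OVA-induced comparison of genotypes also followed transcript length, with a median of -0.41 over the shortest 20% of genes and 0.37 over the longest 20%. For OVA-induced over normal these medians were 0.19 and -0.21 in WT, and -0.14 and 0.11 in Rab44-KO lungs. With the deposited length-scaled abundances (TPM), the median of all genes in the OVA-induced comparison of genotypes moved from -0.02 to 0.29. The housekeeping median there was -0.29.

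The genes were expressed at low levels in every lung. Per transcript length, the deposited TPM ran from 0.0640 for Pdcd1 in normal WT to 20.6 for Cd3e in OVA-induced WT lungs. Gata3 was highest in normal WT at 9.70 TPM, followed by Cd3e at 8.81, Cd4 at 4.60 and Cd8a at 4.51 TPM, and Cd3e was highest in the other 3 libraries. Ctla4 stood next to last in normal WT, at 0.986 TPM, and directly after Cd3e, Cd4 and Cd8a in both OVA-induced libraries, at 7.79 in WT and 5.90 in Rab44-KO. Icos was the lowest of the 10 in OVA-induced Rab44-KO lungs, at 1.53 TPM. With 1 library per group no spread can be set on the order of neighbouring genes. The summed CPM of the 10 genes was 50.3 in the WT and 49.4 in the Rab44-KO library at rest, and 91.1 and 53.0 after OVA, so that OVA-induced WT alone stood apart. In whole lung RNA, fewer T cells and less RNA per T cell cannot be told apart.

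**Figure D1:**
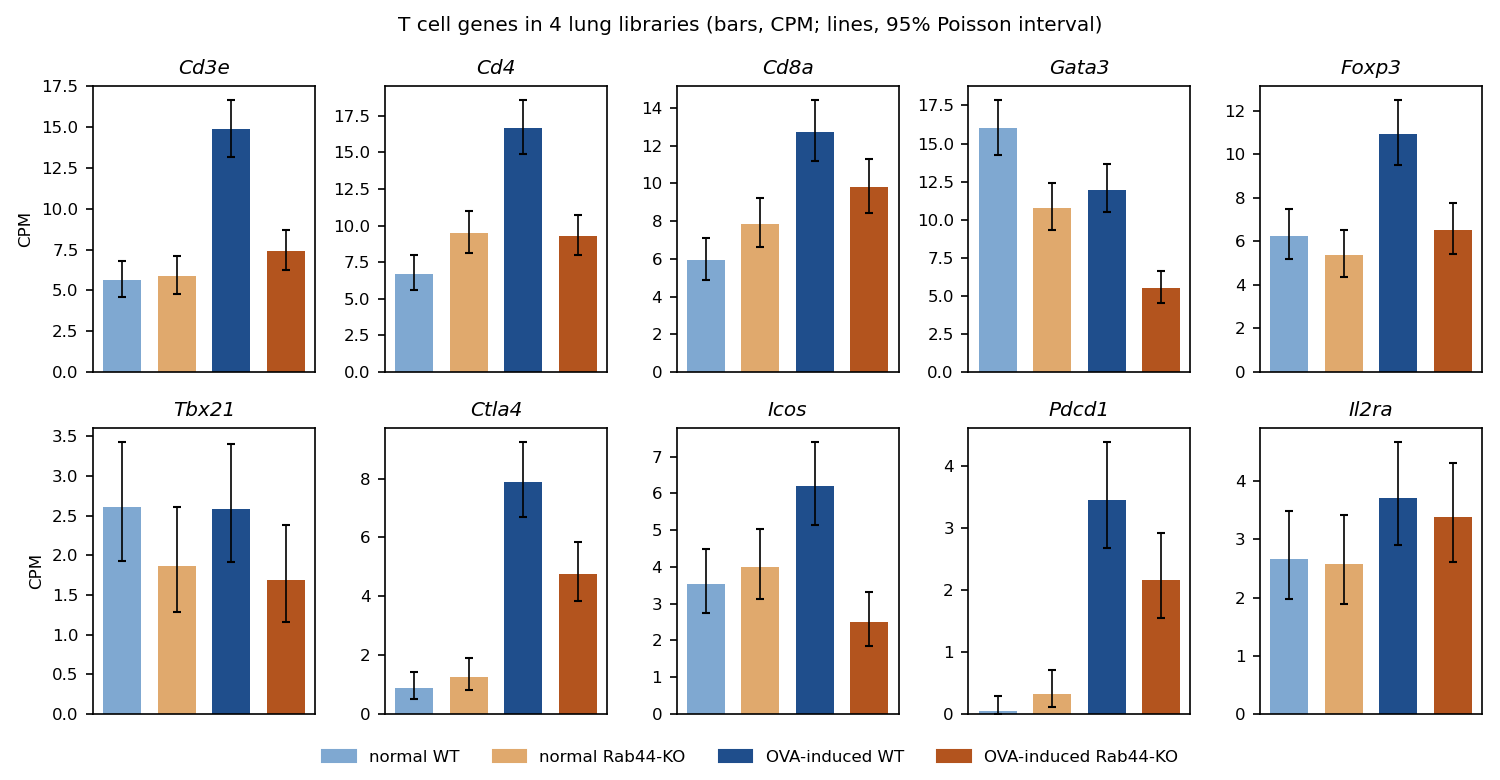
Bars show the TMM-scaled CPM of each T cell gene in the 4 lung libraries, with lines for the exact 95% Poisson interval of the count. Each panel has its own axis from 0. OVA-induced WT is the highest library for 8 of the 10 genes, whereas Gata3 is highest in normal WT lungs and Tbx21 is near equal in both WT libraries.

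Cd3e, the CD3 epsilon chain found on all T cells, had 108 counts in the WT and 107 in the Rab44-KO library at rest, and 288 and 144 after OVA. The normal libraries were level, at a log2 fold change of Rab44-KO over WT of 0.06 (-0.34 to 0.46), and OVA-induced WT stood above the other 3. Its OVA-induced over normal log2 fold change was 1.40 (1.08 to 1.74) in WT and 0.33 (-0.04 to 0.71) in Rab44-KO lungs. Between the OVA-induced libraries the difference was -1.01 (-1.31 to -0.72), just past the 2-fold limit. Cd3e is among the shorter transcripts, at the 17.2 percentile of length, and with the running median along length subtracted this difference was -0.65.

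Cd4 had 129 counts in the WT and 173 in the Rab44-KO library at rest, and 323 and 181 after OVA. Both Rab44-KO libraries were thus nearly level, with a log2 fold change of -0.03 (-0.34 to 0.28) for OVA-induced over normal that became 0.09 with TPM, whereas WT lungs differed by 1.31 (1.01 to 1.62). Rab44-KO over WT was 0.50 (0.16 to 0.84) in normal and -0.84 (-1.12 to -0.58) in OVA-induced lungs, so the genotypes stood in opposite order in the 2 conditions. For Cd8a the genotypes also stood in opposite order, with smaller differences. It had 114 counts in the WT and 143 in the Rab44-KO library at rest, and 247 and 191 after OVA. Its Rab44-KO over WT log2 fold change was 0.40 (0.04 to 0.77) in normal and -0.38 (-0.66 to -0.10) in OVA-induced lungs, the latter being -0.05 with TPM, and OVA-induced over normal was 1.10 (0.78 to 1.44) in WT and 0.32 (0.00 to 0.65) in Rab44-KO lungs. Relative to Cd4 in the same library, there were 0.884 counts of Cd8a in the WT and 0.827 in the Rab44-KO library at rest, and 0.765 and 1.06 after OVA. The ratio was higher without Rab44 under OVA by 0.46 on the log2 scale (0.09 to 0.84). Cd8b1, which encodes the partner chain of the CD8 heterodimer and is more restricted to T cells, did not give this difference, with 179 and 101 counts in the OVA-induced libraries and a log2 difference per Cd4 of 0.0099 (-0.43 to 0.45).

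Gata3, the type 2 lineage factor, was highest in normal WT and lowest in OVA-induced Rab44-KO lungs. It had 307 counts in the WT and 197 in the Rab44-KO library at rest, and 232 and 107 after OVA. Rab44-KO was below WT in both conditions, by a log2 fold change of -0.57 (-0.83 to -0.30) in normal and -1.13 (-1.47 to -0.79) in OVA-induced lungs. OVA-induced lungs were below normal lungs in both genotypes, at -0.42 (-0.67 to -0.17) in WT and -0.98 (-1.33 to -0.63) in Rab44-KO. Per count of Cd3e in the same library, Gata3 counts were 2.84 in the WT and 1.84 in the Rab44-KO library at rest, and 0.806 and 0.743 after OVA. The ratio in OVA-induced lungs was thus lower than in normal lungs by a log2 difference of -1.82 (-2.22 to -1.42) in WT and -1.31 (-1.80 to -0.81) in Rab44-KO, while the 2 OVA-induced libraries differed by -0.12 with Cd3e, by 0.05 with the sum of Cd3d, Cd3e and Cd3g as the reference, and by -0.49 per Cd3e with the length trend subtracted.

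Tbx21, the type 1 lineage factor, had 50 counts in the WT and 34 in the Rab44-KO library at rest, and 50 and 33 after OVA. Both WT libraries were level and both Rab44-KO libraries were level below them, but the intervals of Rab44-KO over WT included 0, at -0.48 (-1.16 to 0.17) in normal and -0.61 (-1.29 to 0.05) in OVA-induced lungs. At this depth no difference in Tbx21 between genotypes was detectable. Per count of Cd3e it was at 0.463 in normal WT and 0.174 in OVA-induced WT lungs, a log2 difference of -1.42 (-2.06 to -0.77). Gata3 over Tbx21 counts were 6.14 in the WT and 5.79 in the Rab44-KO library at rest, and 4.64 and 3.24 after OVA.

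Foxp3, the regulatory T cell factor, had 120 counts in the WT and 98 in the Rab44-KO library at rest, and 212 and 127 after OVA. OVA-induced WT was again the high library, at 0.81 (0.48 to 1.14) over normal WT, against 0.28 (-0.11 to 0.67) for OVA-induced over normal Rab44-KO. OVA-induced Rab44-KO was below OVA-induced WT by -0.75 (-1.08 to -0.42). Foxp3 followed Cd4 within the OVA-induced lungs, with 0.656 counts per count of Cd4 in WT and 0.702 in Rab44-KO. In normal lungs these were 0.930 and 0.566, a log2 difference of Rab44-KO over WT of -0.72 (-1.22 to -0.21). Foxp3 lies on chromosome X (GRCm38, 7573644 to 7595245) across from parts of Ppp1r3f and Ccdc22 on the opposite strand, and 7.04% of its 150-base windows also occur in Flicr on the same strand, a noncoding gene with 14 to 36 counts per library. The strand setting of the authors' counting is not given in the sources used here, so reads of these genes may not be told apart. None of the other 9 genes shared a 150-base window with another gene.

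Ctla4 gave one of the largest OVA responses among the 10 genes, in both genotypes. It had 17 counts in the WT and 23 in the Rab44-KO library at rest, and 153 and 93 after OVA, with both normal libraries far below both OVA-induced libraries. OVA-induced over normal was 8.86-fold in WT, a log2 fold change of 3.15 (2.43 to 3.97), and 3.77-fold in Rab44-KO, 1.91 (1.25 to 2.65). OVA-induced Rab44-KO stayed below OVA-induced WT, at -0.73 (-1.12 to -0.35). Per count of Cd3e, however, the OVA-induced libraries were close, at 0.531 in WT and 0.646 in Rab44-KO, a log2 difference of 0.28 (-0.19 to 0.75), and both were above the normal libraries at 0.157 and 0.215. Per count of Foxp3, Ctla4 was at 0.722 in WT and 0.732 in Rab44-KO after OVA, against 0.142 and 0.235 in the normal libraries.

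Pdcd1, which encodes the inhibitory receptor PD-1, was near absent in normal lungs, with 1 count in WT and 6 in Rab44-KO. It had 67 counts in WT and 42 in Rab44-KO after OVA. Against the single count of normal WT the ratio was 59.1-fold with a counting interval of 11.5 to 2662, and in Rab44-KO it was 6.44-fold (2.77 to 18.9). The normal libraries did not reach the minimum of 10 counts, and Pdcd1 entered the other comparisons only through its OVA-induced counts. OVA-induced Rab44-KO was below OVA-induced WT by a log2 fold change of -0.68 (-1.28 to -0.11).

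Icos showed the largest difference between the OVA-induced libraries among the 10 genes. It had 68 counts in the WT and 73 in the Rab44-KO library at rest, and 120 and 49 after OVA, so OVA-induced WT was the highest and OVA-induced Rab44-KO the lowest of the 4. The genotype difference under OVA was -1.30 (-1.81 to -0.81), or 2.46-fold lower in Rab44-KO, and the OVA response was 0.81 (0.37 to 1.26) in WT and -0.67 (-1.22 to -0.13) in Rab44-KO lungs. Icos lies in a cluster on chromosome 1 (GRCm38) with Cd28 from 60716800 to 60773359, Ctla4 from 60887000 to 60915832 and Icos from 60977927 to 61000320, all on the plus strand and 113640 and 62094 bases apart. The 3 neighbours gave different patterns. Cd28, the costimulatory receptor of resting T cells, had 77 counts in the WT and 87 in the Rab44-KO library at rest, and 168 and 141 after OVA. Icos counts per count of Cd28 were 0.883, 0.839, 0.714 and 0.348 in the same order, a log2 difference between the OVA-induced libraries of -1.04 (-1.62 to -0.46). Per count of Cd3e the same difference was -0.29, with an interval of -0.85 to 0.27 that includes 0. With the length trend subtracted, the genotype difference under OVA was -1.28 for Icos and -0.65 for Cd3e. The ratio of these 2 genes thus differed more on that scale, to which the interval given does not apply. Il2ra varied least, with 51 counts in the WT and 47 in the Rab44-KO library at rest, and 72 and 66 after OVA. Its interval included 0 in all 4 comparisons, and its genotype difference under OVA was -0.13 (-0.64 to 0.37), which became 0.18 with TPM.

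The promoters of 3 members with different OVA responses are shown, with the core letters bound by NFAT, the calcium-regulated factor of T cell activation, in capitals. Sequences are those of RefSeq on GRCm38.p6 from 250 bases before to 50 bases after the gene start, read 5′ to 3′ on the strand of the gene, for Cd3e (chr9:45009562-45009861, minus strand), Ctla4 (chr1:60908775-60909074, plus strand) and Pdcd1 (chr1:94052504-94052803, minus strand). These starts are RefSeq's, and that of Ctla4 lies inside the span given above from GENCODE M21, whose first base is further upstream.
Cd3e: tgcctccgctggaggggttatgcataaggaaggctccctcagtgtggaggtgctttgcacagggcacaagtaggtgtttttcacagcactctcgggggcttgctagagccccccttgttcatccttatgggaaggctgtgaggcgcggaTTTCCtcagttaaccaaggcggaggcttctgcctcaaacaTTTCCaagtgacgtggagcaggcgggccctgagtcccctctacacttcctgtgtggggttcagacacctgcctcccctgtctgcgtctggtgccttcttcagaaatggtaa
Ctla4: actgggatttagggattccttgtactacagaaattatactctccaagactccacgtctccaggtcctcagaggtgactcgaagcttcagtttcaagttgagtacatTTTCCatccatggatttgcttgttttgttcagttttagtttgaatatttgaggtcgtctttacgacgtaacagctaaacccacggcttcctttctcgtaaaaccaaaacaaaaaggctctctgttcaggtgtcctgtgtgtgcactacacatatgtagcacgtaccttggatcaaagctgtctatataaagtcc
Pdcd1: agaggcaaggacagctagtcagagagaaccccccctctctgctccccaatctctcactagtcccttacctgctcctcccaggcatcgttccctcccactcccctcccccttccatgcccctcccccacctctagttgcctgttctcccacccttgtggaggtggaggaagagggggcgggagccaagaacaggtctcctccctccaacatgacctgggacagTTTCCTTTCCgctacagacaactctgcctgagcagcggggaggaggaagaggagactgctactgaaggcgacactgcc
Searched as GGAAA or its reverse complement TTTCC, the NFAT core occurred 2 times for Cd3e, 1 time for Ctla4 and 2 times side by side for Pdcd1. It was found in 9 of 9 windows of the 8 members with an entry, Foxp3 having 2 windows, and in 61.3% of 32851 mouse promoter windows of this length. On either strand, the RUNX letters TGTGGT occurred in 0 of the 9 windows against 16.8% of all, the GATA letters AGATAA in 1 window, of Foxp3, against 11.2%, and the AP-1 letters TGANTCA in 0 against 7.81%. These matches describe letters in a window and not binding. Cd4 and Icos had no entry.

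In the normal lungs the genes showed no common direction between genotypes. Of the 9 that passed the count minimum, 0 passed 2-fold upward and 0 downward, where 2.77% and 2% of 18718 genes did. Their median log2 fold change was 0.06, beside 0.00 over all genes, with 5 above and 4 below 0. Counting intervals lay above 0 for Cd4 and Cd8a and below 0 for Gata3, that is, for 2 and 1 of the 9, where 14.6% and 14.8% of all genes had such intervals.

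Under OVA, all 10 genes were lower without Rab44 than with it, although Il2ra was higher with TPM, while 51.9% of 19259 genes were lower and 48.1% higher. Past 2-fold, 3 of the 10 were lower, namely Icos, Gata3 and Cd3e, and 0 were higher, where 7.34% and 8.4% of all genes were. With TPM, 0 of the 10 were over 2-fold lower, the largest differences then being -0.93 for Icos and -0.78 for Gata3. The counting interval lay wholly below 0 for 8 of the 10, all but Tbx21 and Il2ra, and wholly above 0 for 0, where 33.8% and 29.7% of all genes had such intervals. The median of the 10 was -0.74, beside -0.02 over all genes and -0.62 over the 10 housekeeping genes. Of the housekeeping genes, 9 had intervals wholly below 0. With TPM the medians were -0.40 for the T cell genes, 0.29 for all genes and -0.29 for the housekeeping genes. With the length trend subtracted the T cell median was -0.55, beside -0.26 for the housekeeping genes. Gata3 and Icos then kept -1.13 and -1.28, and Pdcd1 and Ctla4 were at -0.42 and -0.45. The part of the length trend and of the lower housekeeping genes in these values was not tested.

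**Figure D2:**
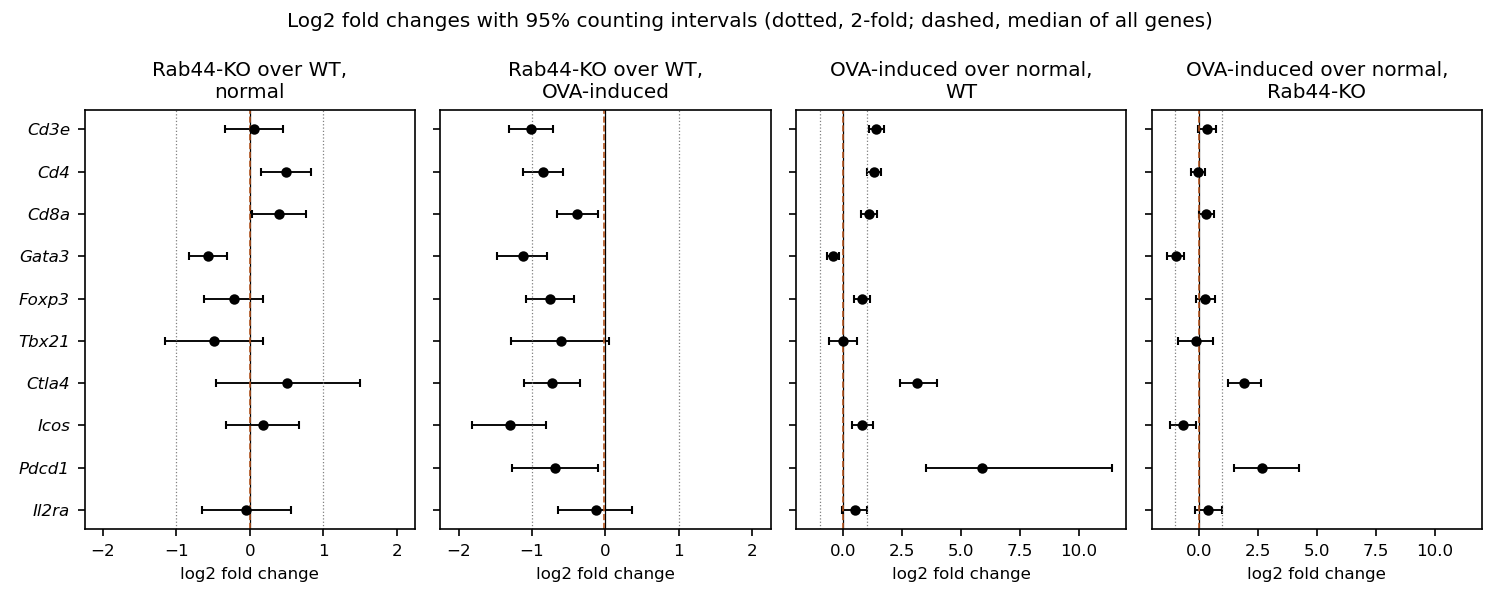
Points give the log2 fold change of each T cell gene in the 4 comparisons and lines the 95% counting interval, with dotted lines at 2-fold and a dashed line at the median of all genes. The 2 panels of OVA-induced over normal use a wider axis. Pdcd1, at 1 and 6 counts, is not drawn for the normal comparison. Between the OVA-induced libraries all 10 points lie below 0, of which Il2ra turned positive with TPM.

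**Figure D3:**
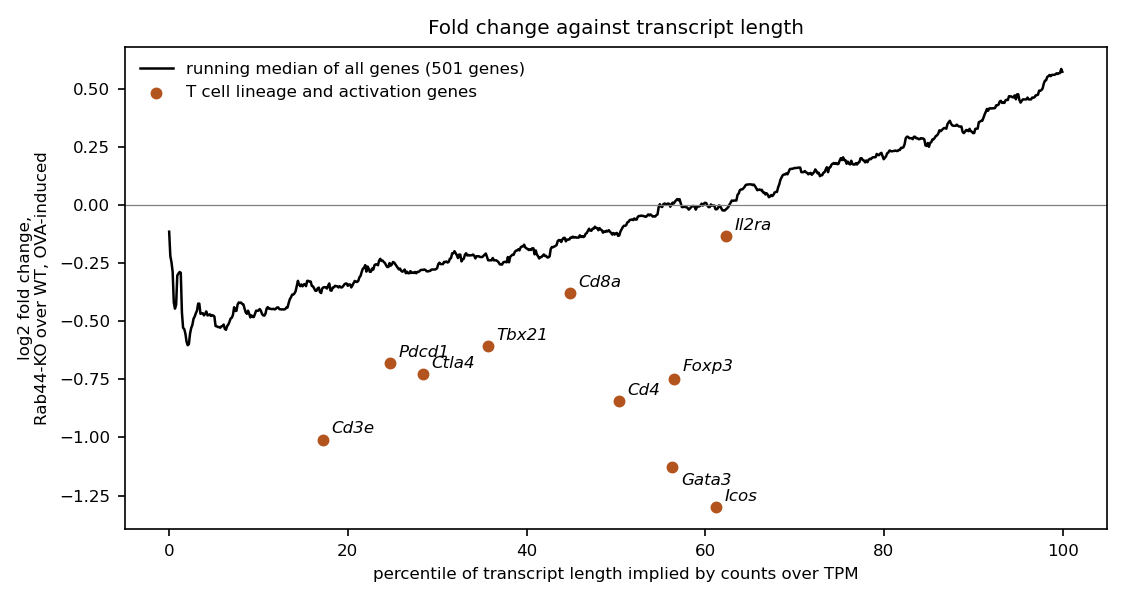
The line is a running median over all genes of the log2 fold change of OVA-induced Rab44-KO over OVA-induced WT, drawn against the percentile of the transcript length implied by counts over TPM, and the points are the T cell genes. All 10 points lie below the line, Gata3 and Icos farthest and Il2ra nearest to it.

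The OVA responses of WT and Rab44-KO lungs were set side by side, the 2 genotype and 2 OVA comparisons sharing the same 4 libraries. In WT lungs 5 of the 10 were over 2-fold higher after OVA (Pdcd1, Ctla4, Cd3e, Cd4 and Cd8a) and 0 over 2-fold lower, where 8.99% and 5.2% of 19023 genes were. With TPM 4 were, as Cd8a was then at 0.91. Of the 10, 8 were above 0 and 2 (Gata3 and Tbx21) below, beside 50.3% and 49.7% of all genes, and intervals lay wholly above 0 for 7 and below 0 for 1 (Gata3), beside 29.2% and 27.4%. In Rab44-KO lungs 2 of the 10 were over 2-fold higher (Pdcd1 and Ctla4) and 0 lower, where 6.44% and 3.85% of 19073 genes were. Here 6 were above and 4 below 0, of which Cd4 turned positive with TPM, beside 49.1% and 50.9% of all genes, and intervals lay wholly above 0 for 3 and below 0 for 2 (Gata3 and Icos), beside 25.4% and 26.6%. The median was 0.96 for WT and 0.30 for Rab44-KO, or 0.81 and 0.28 without Pdcd1, beside 0.00 and -0.01 over all genes and 0.41 and -0.07 over the housekeeping genes, whose part in the responses was not tested. The difference of the responses, Rab44-KO minus WT, was below 0 for 10 of the 10, where 52.2% of 19744 genes were, but with TPM it was 0.17 for Tbx21 and 0.20 for Il2ra, and with the length trend subtracted 0.07 for Tbx21. It was -1.07 (-1.55 to -0.59) for Cd3e, -1.34 (-1.76 to -0.92) for Cd4, -1.23 (-2.20 to -0.27) for Ctla4 and -1.47 (-2.15 to -0.80) for Icos. Tbx21, at -0.13 (-1.01 to 0.76), and Il2ra, at -0.09 (-0.83 to 0.65), had differences that counting error covers. The median of the 10 was -0.92 beside -0.03 over all genes. Pdcd1, which reached the minimum only through its OVA-induced counts, is among them, and without it 9 of 9 were below 0 with a median of -0.78, Tbx21 and Il2ra again turning positive with TPM.

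Ratios within a library do not depend on library scaling, although the length trend acts on them where Cd3e and the other gene differ in length. Cd4 stayed between 1.12 and 1.62 counts per count of Cd3e in the 4 libraries. Ctla4 per Cd3e was higher after OVA by 1.75 on the log2 scale (0.96 to 2.55) in WT and 1.59 (0.84 to 2.34) in Rab44-KO lungs. Icos per Cd3e was lower after OVA in both genotypes, going from 0.630 to 0.417 in WT (log2 -0.60, -1.13 to -0.06) and from 0.682 to 0.340 in Rab44-KO lungs. With the length trend subtracted, the WT responses were 0.79 for Icos and 1.22 for Cd3e, a smaller gap to which that interval does not apply. Per count of Cd28, Icos differed by -0.31 (-0.89 to 0.27) in WT and -1.27 (-1.92 to -0.62) in Rab44-KO lungs. Between the OVA-induced libraries, Cd8a and Il2ra per Cd3e were higher in Rab44-KO, by 0.63 (0.23 to 1.03) and 0.87 (0.31 to 1.44) on the log2 scale. With the length trend subtracted these became 0.42 and 0.53, to which the intervals given do not apply.

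**Figure D4:**
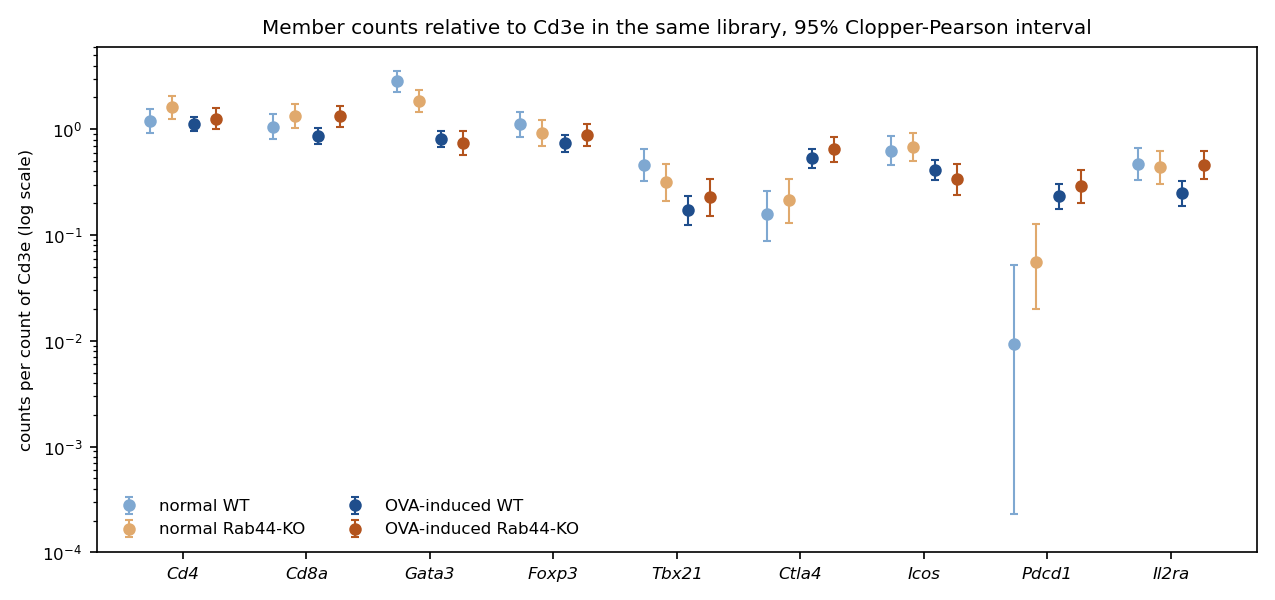
Points give the counts of each gene per count of Cd3e in the same library on a log axis, with exact 95% Clopper-Pearson intervals. Ctla4 and Pdcd1 stand higher and Gata3 lower in both OVA-induced libraries than in both normal libraries.

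Other genes of the T cell receptor machinery were mostly lower as well. Of 22 genes of the receptor complex and its signalling, 9 were over 2-fold lower and 0 higher without Rab44 under OVA. Over all genes 7.34% were lower and 8.4% higher. The median of the 22 was -0.82. With TPM the median was -0.49 and 1 of the 22 was over 2-fold lower. Cd2, an adhesion receptor shared with natural killer cells, had 933 and 350 counts (-1.42, -1.61 to -1.25), and Trac, the constant region of the receptor alpha chain, 365 and 148 (-1.31, -1.60 to -1.03). Trbc2, the beta chain constant region, had 386 and 155 counts, but it and Trbc1 are near-identical and their counts are uncertain. Cd247, the zeta chain, was the 1 gene of the 22 above 0, with 369 and 475 counts (0.35, 0.16 to 0.55). In WT lungs 11 of the 22 (6 with TPM) were over 2-fold higher after OVA (median 0.99), where 8.99% of all genes were. Among the 11 was the adaptor Lcp2 with 248 and 710 counts, 2.84-fold (2.45 to 3.29). In Rab44-KO lungs 0 were (median 0.11), where 6.44% of all genes were. Between the normal libraries the median of the 22 was -0.07.

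Lists for the helper fates were counted in turn, where 7.34% of all genes were over 2-fold lower without Rab44 under OVA and 8.4% higher. Of 7 type 1 helper genes, 3 were over 2-fold lower without Rab44 under OVA, with a median of -0.92. With TPM 2 were, and the median was -0.55. Ifng, among the 3, reached the minimum only through OVA-induced WT lungs. The chemokine receptor Cxcr3, with 121 and 51 counts (-1.25, -1.76 to -0.77), was among them. Of 12 genes of type 2 helper and group 2 innate lymphoid cells, 10 passed the minimum, 4 of them over 2-fold lower and 0 higher, with a median of -0.39. With TPM 3 were lower and 1 higher, and the median was -0.06. Among the 4, Il4 and Il13 reached the minimum only in OVA-induced WT lungs, where they were highest. The interleukin-33 receptor Il1rl1 had 352 and 173 counts (-1.03, -1.31 to -0.77), whereas Rora, a factor of innate lymphoid cells and other tissues, had 935 and 1711 (0.86, 0.75 to 0.98). Of 6 type 17 genes, 3 passed with a median of 0.96, and 0 were past 2-fold, but with TPM 2 were over 2-fold higher and the median was 1.06. These 3 genes went both ways, from -0.57 to 0.98. Of the 6 follicular helper genes, 5 passed and 2 were over 2-fold lower, or 1 with TPM (median -0.92, or -0.59 with TPM and -0.53 with the length trend subtracted), with the chemokine receptor Cxcr5, also a B cell gene, at 303 and 161 counts (-0.92, -1.21 to -0.64). The cytokines that define these fates were near the limit of the depth. Ifng had 5 counts in the WT and 3 in the Rab44-KO library at rest, and 20 and 1 after OVA, and in the same order Il4 had 6, 7, 17 and 6. Il13 had 1, 0, 13 and 0 counts, Il5 had 16, 19, 8 and 7, and Il10 had 1, 3, 10 and 7. Il17a had 4 counts in OVA-induced Rab44-KO lungs and 0 elsewhere, and Il2 had 3 counts in OVA-induced WT lungs and 0 elsewhere. In OVA-induced WT lungs, Ifng, Il4, Il13 and Il10 each had their highest count.

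Regulatory T cell genes and a list of ligands, partners and related receptors were counted in the same OVA-induced comparison. There, 7.34% of all genes were over 2-fold lower and 8.4% higher. Of 11 regulatory genes that passed, 4 were over 2-fold lower and 1 higher, with a median of -0.76. With TPM 2 were lower and 2 higher, and the median was -0.43. Tnfrsf9, a costimulatory receptor also known as 4-1BB, had 25 counts in the WT and 22 in the Rab44-KO library at rest, and 309 and 26 after OVA, which under OVA was 11.9-fold lower (8.01 to 18.6) in Rab44-KO. Only the OVA-induced WT library stood apart. Ikzf4, which encodes the factor Eos, had 67 and 153 counts in the OVA-induced libraries and was the 1 gene over 2-fold higher, at 1.18 (0.76 to 1.62). Of 11 genes of the ligand and partner list that passed, 2 were over 2-fold lower, or 1 with TPM. Their median was -0.54, or -0.21 with TPM, which was not below the housekeeping median of -0.62 on the count scale. Cd86 and Cd80, the ligands shared by CD28 and CTLA-4, had 274 and 128 counts (-1.11, -1.42 to -0.80) and 123 and 65 counts (-0.93, -1.39 to -0.48), and the PD-1 ligand Pdcd1lg2 had 65 and 22. Havcr2, the inhibitory receptor TIM-3, had 426 and 243 counts (-0.82, -1.05 to -0.59).

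Genes of naive and recirculating T cells were not lower as a list. Of 9 such genes, 0 were past 2-fold in either direction between the OVA-induced libraries, where 7.34% of all genes were lower and 8.4% higher. The median of the 9 was 0.12. With TPM the median was 0.44 and 1 was over 2-fold higher. The lymph node homing receptor Ccr7 had 565 and 297 counts (-0.94, -1.14 to -0.73), while S1pr1, a receptor for exit from lymphoid tissue, had 6267 and 12046 (0.93, 0.89 to 0.98). S1pr1 and Klf2 are also strongly expressed in endothelium. Of 6 gamma delta T cell genes, 1 was over 2-fold higher and 0 lower (median 0.21, or 0.54 with TPM).

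**Figure D5:**
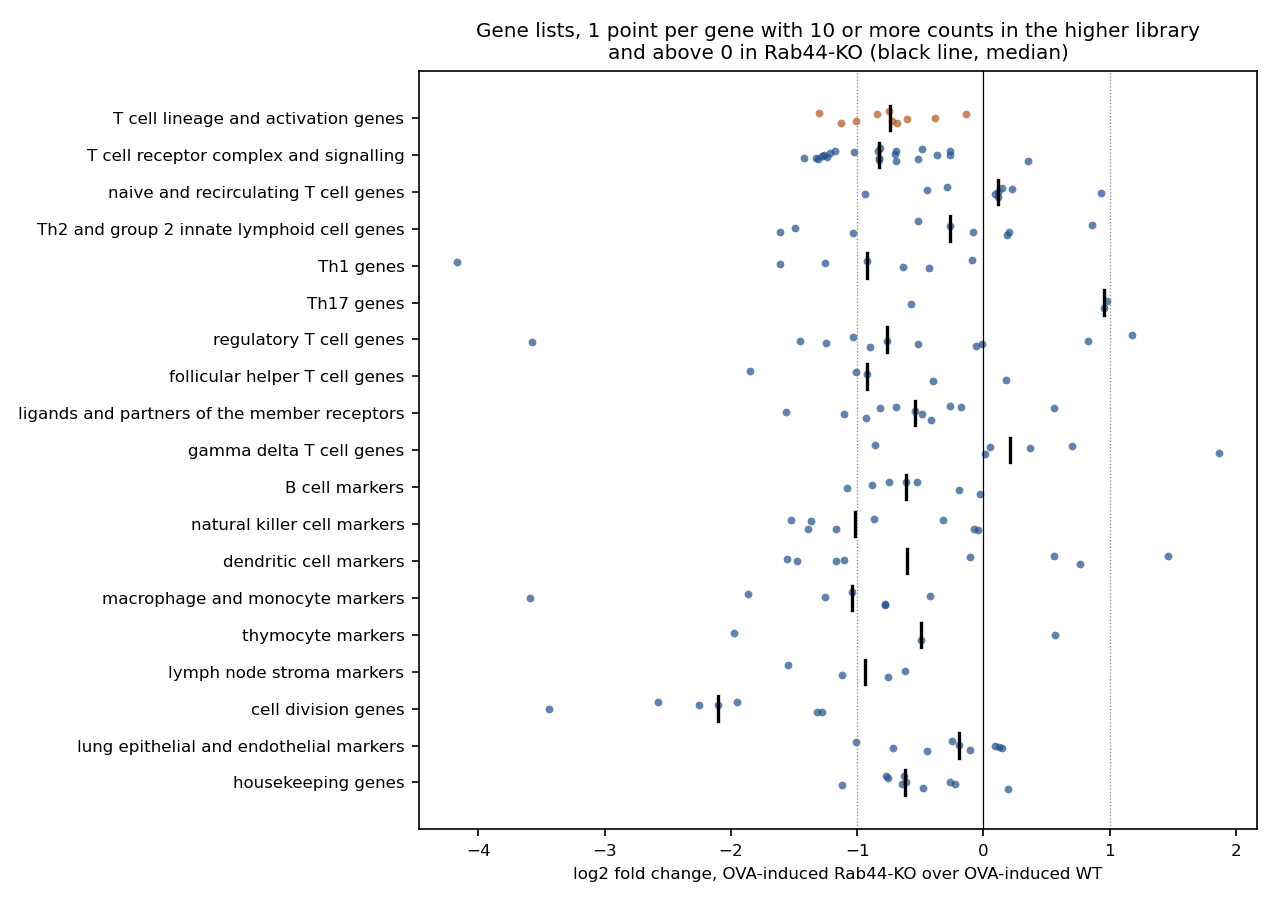
Each point is a gene of the named list at its log2 fold change of OVA-induced Rab44-KO over OVA-induced WT lungs, for genes that reached 10 counts in either library, and black lines are medians over the points drawn. Genes with 0 counts in Rab44-KO lungs, such as Il13, are not drawn. The T cell genes, their receptor complex, type 1, regulatory and follicular lists lie mostly below 0, as do natural killer, macrophage and cell division markers and housekeeping genes.

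Markers of other cells were counted in the same comparisons. Without Rab44 under OVA, 7.34% of all genes were over 2-fold lower and 8.4% higher. Cell division genes were all over 2-fold lower without Rab44 under OVA (7 of 7, median -2.11, against 5 of 7 and -1.72 with TPM), with Top2a at 276 counts in the WT and 318 in the Rab44-KO library at rest, and 667 and 141 after OVA. Their OVA response had a median of 1.25 with Rab44 and -1.26 without it. Macrophage and monocyte markers were over 2-fold lower for 4 of 7 (median -1.04, against 2 of 7 and -0.71 with TPM), and their summed CPM was 326 in the WT and 333 in the Rab44-KO library at rest, and 714 and 370 after OVA. Natural killer cell markers, some of which cytotoxic T cells share, were over 2-fold lower for 4 of 8 (median -1.02, against 3 of 8 and -0.68 with TPM), with summed CPM of 66.3, 59.2, 82.6 and 43.0 in the same order, and their OVA response had a median of 0.16 with Rab44 and -0.44 without it. Of 8 dendritic cell markers, 4 were over 2-fold lower and 1 higher (median -0.61, against 2, 2 and -0.27 with TPM). B cell markers were over 2-fold lower for 1 of 7 (median -0.61, against 0 of 7 and -0.28 with TPM), and 7 of 7 were also below 0 between the normal libraries (median -0.36). The median OVA response was 0.92 with Rab44 and 0.91 without it. Of 6 thymocyte markers, 3 passed, of which 1 was over 2-fold lower (0 with TPM) and 0 higher, with a median of -0.50, and the defining markers Rag1, Rag2 and Ptcra had at most 2 counts in any library. Of 6 lymph node stroma markers 4 passed and 2 were over 2-fold lower (median -0.94, against 1 and -0.60 with TPM), and the high endothelial venule markers Glycam1 and Madcam1 had at most 2 counts. Lung epithelial and endothelial markers were over 2-fold lower for 1 of 9 (0 with TPM), with a median of -0.19 that became 0.13 with TPM. The part of these cell types in the values of the T cell genes was not tested.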

How the data were processed

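Lung RNA of 4 libraries was analysed, 1 per group, assigned by the labels. Per the methods and labels, HISAT2 was used to map trimmed paired reads to GRCm38, and featureCounts to assign them to genes. The authors deposited the raw counts, with no normalization. The authors also deposited TPM, which rescale the counts by 1 length per gene. The library kit was directional, but the strand setting, the handling of reads with several matches and the tool versions are not given in the sources used here. Only 0.858% of genes in the deposited table begin where GENCODE M21 places them, so positions are from GENCODE M21 on GRCm38, in which 10 of 10 member identifiers were found.

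Counts were scaled with edgeR 4.0.16 (TMM over the 4 libraries, factors 0.973 to 1.02) in R 4.3.3, and log2 fold changes used a prior count of 0.125. Ratios, intervals and figures were made in Python 3.11.15 with numpy 2.4.6, pandas 2.3.3, scipy 1.17.1 and matplotlib 3.10.9. Fold changes have exact 95% Clopper-Pearson intervals, CPM exact Poisson intervals, and ratios of ratios and differences of responses normal intervals from reciprocal counts. All cover counting error only. The sequencing depth leaves 3 counts as the floor for a count of 0. A pair of libraries leaves no residual degrees of freedom, and an additive fit over all 4, which would leave 1, was not run. The steps were tested on simulated data.

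The 10 genes and 18 other lists were chosen with earlier results of these data known. Named genes are the 10, Rab44, examples from the 3 genes per list and comparison with the largest absolute log2 fold change and 100 counts or more in the higher library, the cytokines Il4, Il5, Il13, Ifng, Il17a, Il10 and Il2, and the 10 genes nearest to the mean profile. Cd8b1, Cd247, Pdcd1lg2, Glycam1, Madcam1, Rag1, Rag2, Ptcra and the neighbours of Foxp3 were named after their values were seen. Alternatives were DESeq2 1.42.0 size factors, total counts, TMM without immunoglobulin genes or on the compared libraries, a prior count of 2, TPM with a pseudocount of 0.1, subtraction of a running median along length, thinned counts, count minimums of 50 and 1, and other reference genes for ratios. Subtraction of the length trend from ratios to Cd3e was added after seeing the data.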

Additional observations from a re-analysis of the deposited data

Results flagged for a closer look

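Results are given here where a contrast had opposite signs in the groups set side by side. With 1 library per group the difference was not tested for any of them, and outlying samples could not be sought. The Rab44-KO over WT log2 fold change of Cd4 was 0.50 in normal and -0.84 in OVA-induced lungs. That of Cd8a was 0.40 in normal and -0.38 in OVA-induced lungs, the latter being -0.05 with TPM and -0.23 with the length trend subtracted. Cd8b1 had 93 counts in the WT and 87 in the Rab44-KO library at rest, and 179 and 101 after OVA. Its genotypes thus stood in the same order in both conditions. The OVA-induced over normal log2 fold change of Icos was 0.81 in WT and -0.67 in Rab44-KO lungs. On the count scale, the counting intervals of the 6 values of Cd4, Cd8a and Icos lay on 1 side of 0.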

How the results depend on the processing

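No paired analysis was possible because the groups compared share only 1 replicate number, and no replicate could be left out of a group of 1. An additive fit of genotype and OVA over all 4 libraries was not run. The median log2 fold change of the T cell genes kept its sign under every alternative run, within 0.01 to 0.12 for Rab44-KO over WT in normal lungs, -0.75 to -0.40 in OVA-induced lungs, 0.77 to 0.98 for OVA in WT and 0.30 to 0.42 in Rab44-KO lungs, and -0.92 to -0.62 for the difference of the OVA responses. With TPM, which lifts the whole OVA-induced comparison, 0 in place of 3 of the genes were over 2-fold lower in OVA-induced Rab44-KO lungs, and over all genes the comparison held 2602 higher and 777 lower, against 1617 and 1413, while 481 in place of 734 were lower after OVA in Rab44-KO lungs. The counts of genes over 2-fold followed the number of genes let in. At a minimum of 50 counts they were 75 higher and 26 lower for normal Rab44-KO over WT, 754 and 791 under OVA, 989 and 361 for OVA in WT and 478 and 285 for OVA in Rab44-KO, where 1 of the T cell genes, Ctla4, remained past 2-fold, because Pdcd1 has 42 counts. With no minimum they were 3068 and 2521, 4404 and 3552, 4219 and 3325, and 3937 and 3136, and Pdcd1 at 1 and 6 counts became 1 gene over 2-fold higher in normal Rab44-KO lungs. With Cd8b1 in place of Cd8a the ratio to Cd4 in OVA-induced lungs differed by 0.0099 in place of 0.46, and the cause was not tested. At the depth of Tbx21, with 50 and 33 counts in the OVA-induced libraries, a log2 difference of -0.61 had a counting interval of -1.29 to 0.05.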

Other observations

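The genes whose centred log2 CPM over the 4 libraries lay nearest to the mean of the 10 T cell genes were sought among 16284 other genes with at least 100 counts in all. The mean profile was -0.61 for WT and -0.32 for Rab44-KO at rest, and 0.84 and 0.09 after OVA. It includes Pdcd1, which had 1 and 6 counts at rest and lay at -3.40, -0.89, 2.48 and 1.80 in the same order. The mean and all distances to it thus rest in part on Pdcd1. The 10 genes nearest to the mean with Pdcd1 in it, by Euclidean distance over 4 values, were Bend6 (0.0434), Plcl2 (0.0702), Lpcat2 (0.0712), Apol9b (0.0714), Ltf (0.0873), Cdca2, Il33, Tmem202, Cd80 and Tns4 (0.128). Il33, the alarmin of epithelium and stroma, had 1302 counts in the WT and 1441 in the Rab44-KO library at rest, and 3834 and 2198 after OVA. Ltf, a granule protein of neutrophils and secretory epithelium, had 298, 318, 795 and 462 in the same order. Of the T cell genes themselves, Cd3e lay nearest to the mean with Pdcd1 in it, at a distance of 0.248, and Pdcd1 farthest, at 3.71. This order may differ for a mean without Pdcd1. With 4 libraries many genes share such a profile, and nearness is a description only.

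The gene pair Btla and Cd80 differed although both were placed in the list of ligands, partners and related receptors. Btla is an inhibitory receptor of B and T cells. It had 510 counts in the WT and 531 in the Rab44-KO library at rest, and 911 and 1348 after OVA. Its log2 fold change for Rab44-KO over WT under OVA was 0.56 (0.43 to 0.68). It was the 1 gene of 11 in that list above 0 there. In Rab44-KO lungs it was over 2-fold higher after OVA, at 1.25 (1.10 to 1.40).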
